A study of Mus musculus with 14 samples.

Results

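Untreated intestinal organoids of a Chgb-mCherry knock-in line were compared with untreated wild-type organoids, with 1 single-cell RNA-seq library of each. Organoids are cultures of intestinal epithelium grown from its stem cells. The knock-in places the red fluorescent protein mCherry at Chgb, the gene of chromogranin B, a secretory granule protein of enteroendocrine cells. Both lines were grown in ENR medium, which holds EGF, Noggin and R-spondin1, and received no treatment. The study asked how the small molecule Isx-9 acts on these cells, and it also holds reporter organoids kept for 6 days in 0.05% DMSO vehicle or in 25 µM Isx-9, started on day 2 after passage, whose values are set beside the untreated ones where they bear on them. The labels give the tissue as whole intestinal organoid. They give neither the gut segment, the strain, the age nor the number of the source animals, nor whether the line is 1 clone.

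Cells were kept with at least 500 genes, at least 1000 unique molecular identifiers (UMIs, counted RNA molecules) and at most 20% of UMIs on mitochondrial genes. These were 8745 of 10830 wild-type cells and 9610 of 11885 reporter cells, 18355 of the 46548 cells in the 4 single-cell libraries. They carried 135743715 and 129967312 UMIs, with medians of 15007 and 12633 UMIs per cell, and 22 barcodes occurred in both sets. UMIs were summed per library and scaled to the library's total as CPM, the usual counts-per-library unit, for the 12455 autosomal genes listed in both matrices with at least 100 UMIs over both. With 1 library per line no test is possible, and every difference below compares 2 libraries, so line, culture, animal and library preparation cannot be told apart. Intervals are exact 95% counting intervals and cover counting error only, and a gene is called higher or lower where its CPM differ at least 2-fold. Markers of other cells were near the floor: of 12 immune markers 5 were not listed in the wild type and 4 not in the reporter, with summed levels of 5.01 and 3.24 CPM. The T-cell markers Cd3e, Cd3d and Cd8a, the fibroblast markers Dcn, Lum and Pdgfra and the endothelial marker Cdh5 were listed in neither library. Of the other-cell genes that were seen, Vim stood at 23.3 and 36.5 CPM and Ret at 3.65 and 2.26 CPM.

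The small intestine changes its gene expression along its length. Proximal epithelium depends on the transcription factor Gata4 and carries Onecut2 and Pdx1, and it takes up fat, iron and vitamin A. The ileum at the distal end recovers bile acids: Slc10a2 imports them from the lumen, Fabp6 carries them through the cell, the Slc51a and Slc51b pair exports them, and Fgf15 signals their return to the liver. Hox genes lie in clusters whose order along the chromosome follows the order of their expression along the body, and intestinal epithelium keeps part of that pattern in culture.

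The upstream sequences of 3 genes that carry the regional difference are printed as picked examples: Fabp6 and Slc10a2 of the distal list and Rbp2 of the proximal list. Each is the 250 bases before the start site in RefSeq's table (GRCm38.p6, the build the files use), on the minus strand at chr11:43601563-43601812 for Fabp6 and chr8:5105288-5105537 for Slc10a2 and on the plus strand at chr9:98490287-98490536 for Rbp2. Capitals mark TTTAT or its reverse complement ATAAA, the core letters bound by CDX factors, and AGATAA or its reverse complement TTATCT, letters bound by GATA factors, and the 2 share a base in Rbp2.
Fabp6: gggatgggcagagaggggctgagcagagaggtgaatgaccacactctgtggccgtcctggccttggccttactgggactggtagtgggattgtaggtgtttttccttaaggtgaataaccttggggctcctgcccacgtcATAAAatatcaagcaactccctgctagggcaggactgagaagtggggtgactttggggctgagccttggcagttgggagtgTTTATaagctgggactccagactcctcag
Slc10a2: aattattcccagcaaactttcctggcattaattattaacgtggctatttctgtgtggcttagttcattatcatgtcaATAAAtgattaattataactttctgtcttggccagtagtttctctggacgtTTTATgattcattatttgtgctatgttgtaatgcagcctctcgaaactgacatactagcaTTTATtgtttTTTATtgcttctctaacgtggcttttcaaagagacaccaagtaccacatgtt
Rbp2: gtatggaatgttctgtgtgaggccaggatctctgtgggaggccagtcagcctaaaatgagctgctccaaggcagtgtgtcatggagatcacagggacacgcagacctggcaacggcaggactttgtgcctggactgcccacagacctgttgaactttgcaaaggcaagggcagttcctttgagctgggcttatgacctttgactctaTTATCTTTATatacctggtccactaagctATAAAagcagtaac
Of 27025 upstream stretches of this length, 38.1% held TTTAT on either strand and 10.3% held AGATAA. Of the 16 distal genes called lower below, 12 had an entry, of which 7 held TTTAT and 0 held AGATAA. Of the proximal genes with a ratio above 1, 7 had an entry, of which 3 held TTTAT and 2 held AGATAA. The printed genes are not all extremes: Tmigd1 had a lower ratio than Slc10a2, and Hsd17b6 a higher one than Rbp2. Slc10a2 had the most TTTAT matches of the lower distal genes, and of these proximal genes only Rbp2 held both. These matches describe letters and not bound sites.

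Chgb itself, on chromosome 2 at 132781642 to 132795079 (GRCm38), had 98368 UMIs in the wild type and 68729 in the reporter. This was 725 CPM against 529 CPM, a ratio of 0.73 (0.723 to 0.737), or a log2 difference of -0.45. The DMSO reporter library held 479 CPM, and the Isx-9 reporter library held 7341 CPM. The untreated and DMSO reporter libraries were below the wild type by less than 2-fold, and the Isx-9 library was above it. Cells with at least 10 Chgb UMIs were 427 in the wild type, 4.88% (4.44 to 5.36), and 421 in the reporter, 4.38% (3.98 to 4.81). Cells with at least 1 Chgb UMI were 20.4% and 15.5%, and 11.2% and 9.11% after each cell was thinned to 5000 UMIs, which left out 1123 and 1115 shallower cells. Much of that share was not enteroendocrine: in tuft-like cells, which should lack the gene, 10.2% and 5.95% had a Chgb UMI, at median depths of 7681 and 7473 UMIs. Within the enteroendocrine-like cells named below the 2 levels were 16637 and 13400 CPM, a log2 difference of -0.31. The matrices hold no mCherry row, so the reporter transcript was not measured. Of the 20 measured genes on each side of Chgb, 0 of 40 were higher and 1 was lower (background over all genes 0.988% and 2.28%), with a median log2 ratio of -0.03. That gene was Gfra4, with 105 and 49 UMIs.

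Over all autosomal genes the 2 libraries were close, with a median log2 ratio of -0.02 and a 5th to 95th percentile range of -0.63 to 0.41. The reporter had 123 genes higher, 0.988% of those tested, and 284 lower, 2.28% of those tested. The DMSO library of the same line against the untreated reporter library gave 8 genes higher, 0.0646%, and 5 lower, 0.0404%, together 0.105%. The called genes were spread over the genome, with between 1.88% of the genes of chromosome 18 and 4.80% of those of chromosome 1 called in either direction (background 3.27%).

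Genes of the ileum made up the list with the most lower calls. Of 22 distal genes 20 reached 100 UMIs, and of these 16 were lower and 0 higher (background 2.28% and 0.988%), with a median log2 ratio of -1.52 against -0.02 over all genes. With the DMSO reporter in place of the untreated one, 13 were lower (background 1.92%). Of the other 2 members, Fam151a had 8 and 19 UMIs and Satb1 was not listed in the wild type. In summed libraries, fewer cells of a type and less RNA per cell cannot be told apart. Fabp6 stood at 117 CPM in the wild type, 4.15 in the reporter, 8.14 in the DMSO reporter and 0.408 in the Isx-9 reporter. The wild-type library was the high one, 28.1-fold (25.8 to 30.7) above the untreated reporter, and 1737 of its 15876 Fabp6 UMIs lay in 1 cell. Slc10a2 stood at 16.5, 2.33, 2.49 and 0.39 CPM in the same order, 7.09-fold (6.29 to 8.02) above the untreated reporter. The exporter subunit Slc51b stood at 11.4, 2.59, 2.92 and 0.168 CPM. Again the 2 reporter libraries without Isx-9 lay close together and far below the wild type. Its partner Slc51a differed less, with 2031 and 897 UMIs, and the hormone Fgf15 had 339 and 67 UMIs, a log2 ratio of -2.28. Nr1h4, the bile acid receptor FXR, missed 2-fold with 2574 and 1255 UMIs, while Nr0b2, the corepressor SHP that FXR induces, was higher in the reporter, with 1.39 and 3.29 CPM. Of the 7 bile acid genes 5 were lower and 1 was higher.

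Most other distal genes pointed the same way. Tmigd1, a membrane protein, had 2303 UMIs in the wild type and 101 in the reporter, a log2 ratio of -4.45. Cubn, the receptor for vitamin B12 bound to intrinsic factor, had 238 and 28 UMIs, and the myelin-associated Pmp22 had 943 and 101. The transcription factors Osr2 and Maf of the distal list differed less, with 31.8 and 13.7 CPM for Osr2, and 9.92 and 4.81 CPM for Maf. Members above 0 were Plb1, a brush border phospholipase with 78 and 124 UMIs, and Amn, the membrane anchor of cubilin, with 4654 and 4932 UMIs.

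Proximal genes lay above the rest, mostly short of 2-fold. Of 16 proximal genes 14 reached 100 UMIs, and 2 of them were higher (background 0.988%) and 1 lower, with a median log2 ratio of 0.77. In the DMSO reporter against the wild type 6 were higher (background 1.04%, and 2.96% in either direction). With the reporter's class shares set to those of the wild type 0 were higher, with a median of 0.40, though most cells lay in no named class. The 2 were Rbp2, which binds retinol in enterocytes, and Hsd17b6, a steroid dehydrogenase. Rbp2 stood at 124 CPM in the wild type, 265 in the reporter, 309 in the DMSO reporter and 16.6 in the Isx-9 reporter, 2.14-fold (2.10 to 2.18) higher in the untreated reporter. Onecut2 stood at 59.6, 119, 108 and 124 CPM, just short of 2-fold in the untreated reporter with an interval of 1.94 to 2.05. Gata4 stood at 13.3, 25.6, 26.5 and 26.2 CPM, so all 3 reporter libraries were above the wild type for both factors. Apoa4, an apolipoprotein of chylomicrons, stood at 31.0, 61.1, 85.6 and 2.29 CPM, and the antimicrobial peptide Leap2 had a log2 ratio of 0.98. Pdx1, the other proximal factor, had 882 and 1096 UMIs. Slc40a1, the iron exporter ferroportin, went the other way with 6.42 and 2.99 CPM, and the lactase gene Lct had 23 and 14 UMIs. The general intestinal factors stayed within 2-fold: Cdx2 had 176 and 141 CPM and Cdx1 had 128 and 115 CPM. Among 27 intestinal transcription factors tested, 0 were higher and 4 lower (background 0.988% and 2.28%), Osr2, Maf and Klf4 among them. Of 5 colon genes tested 1 was higher, the water channel Aqp8 with 70 and 194 UMIs, and 1 was lower. Car1, a carbonic anhydrase of the colon, had 171 UMIs in the wild type and was not listed in the reporter. Of 4 stomach genes 1 was lower, Tff1, but 354 of its 366 wild-type UMIs lay in 1 cell.

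**Figure D1:**
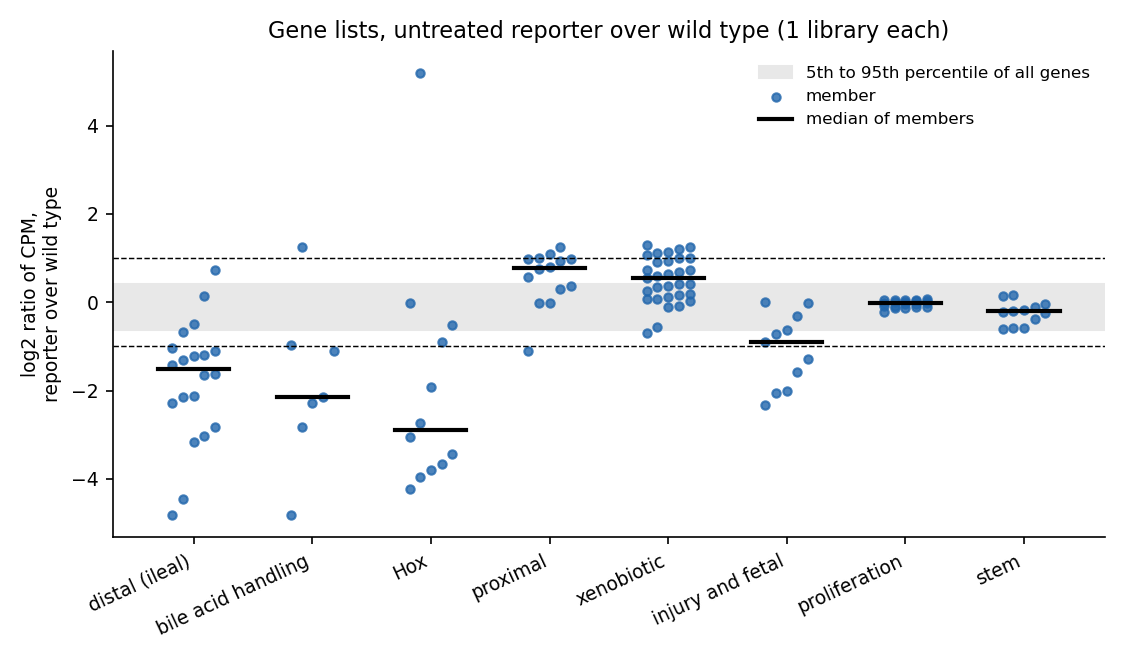
Log2 ratio of CPM, reporter over wild type (y axis), for the tested members of 8 gene lists (points; black bar, median), with the 2-fold lines dashed and the 5th to 95th percentile of all tested genes in grey. The distal list sits low with a median of -1.52 and the proximal list high with a median of 0.77, while the proliferation and stem lists stay within 2-fold.

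**Figure D2:**
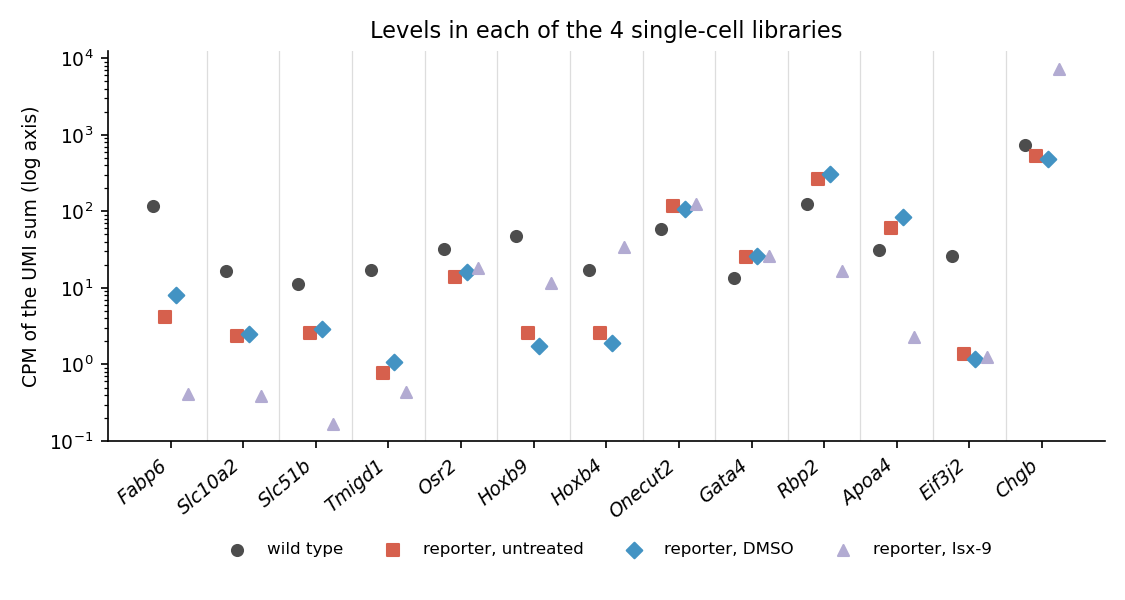
CPM of 13 genes (log y axis) in each of the 4 single-cell libraries, 1 point per library, to be compared within a gene. For Slc10a2, Hoxb9 and Eif3j2 the untreated and DMSO reporter libraries lie together, well below the wild type, and for Fabp6 they lie below it at 4.15 and 8.14 CPM.

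The Hoxb cluster on chromosome 11 (Hoxb9 starts at 96271330 and Hoxb2 ends at 96354020) was low in the reporter over all 8 genes tested. Of 39 Hox genes 12 could be tested, and 8 were lower and 1 higher (background 2.28% and 0.988%). The 8 were Hoxb2, Hoxb3, Hoxb4, Hoxb5, Hoxb6, Hoxb7, Hoxb8 and Hoxb9, and their log2 ratios ran from -1.92 for Hoxb2 to -4.22 for Hoxb9. Hoxb9 had 47.8 CPM in the wild type, 2.56 in the reporter, 1.73 in the DMSO reporter and 11.6 in the Isx-9 reporter, 18.6-fold (16.7 to 20.9) higher in the wild type than in the untreated reporter. Hoxb4 had 17.2, 2.59, 1.90 and 34.5 CPM, so the wild-type and Isx-9 libraries were high and the other 2 low. Gm53, a predicted gene that starts at 96251660 beside Hoxb9 and was looked up after the data were seen, was low as well, with 2510 and 126 UMIs. The next tested genes on either side were not called: Atp5g1, a subunit of ATP synthase, had 898 and 956 CPM, and Snx11, a sorting nexin, had 6.46 and 6.29 CPM. In the Hoxa cluster on chromosome 6, Hoxa3, Hoxa4 and Hoxa5 had log2 ratios of -0.91, -0.51 and -0.01. Hoxa7 stood apart with 4 UMIs in the wild type and 140 in the reporter, a ratio of 36.6 (14.0 to 136), in 4 and 113 cells. Hoxa9 and Hoxa10, with 105 and 55 UMIs in the reporter, were not listed in the wild type, where a gene seen in fewer than 3 cells does not appear.

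Within each library the Hoxb genes split the cells. At least 1 UMI of these 8 genes was found in 4409 wild-type cells, 50.4% (49.4 to 51.5), and in 661 reporter cells, 6.88% (6.38 to 7.40). In the DMSO reporter the share was 6.34% and in the Isx-9 reporter 45.8%. Thinned to 5000 UMIs per cell, the 4 shares were 40.3%, 4.30%, 3.93% and 35.8%, in the same order at equal depth. Cells with Hoxb8 usually held another of these genes: 95.2% of 2310 such wild-type cells did, against 32.6% of the rest, and 82.7% of 156 such reporter cells did, against 5.34% of the rest. Depth differed little between the 2 kinds of wild-type cell, with medians of 15219 and 14684 UMIs. No class of cells known to lack these genes was available as a floor, and the lowest share was that of the reporter's enterocyte-like cells, 0.917%.

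**Figure D3:**
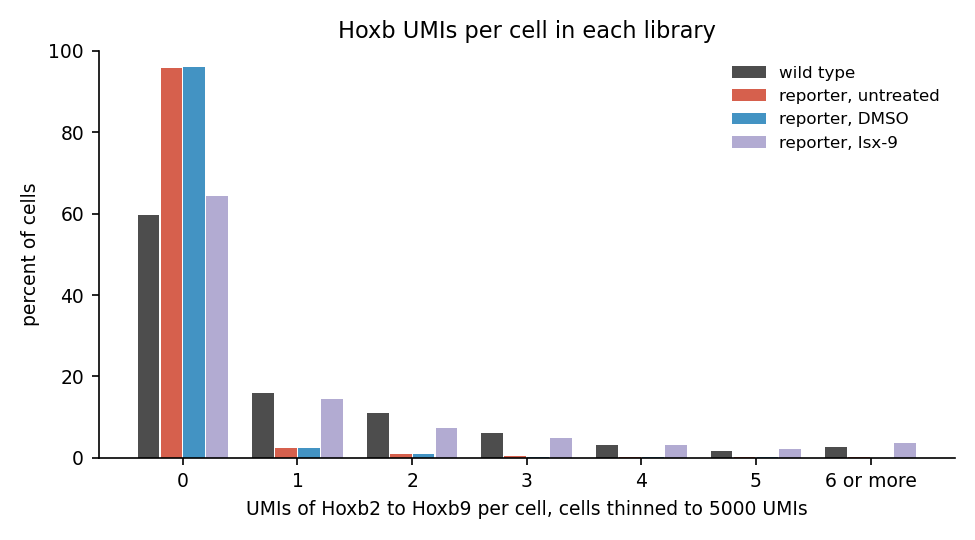
Percent of cells (y axis) by the number of Hoxb2 to Hoxb9 UMIs per cell after thinning to 5000 UMIs (x axis), for the 4 libraries. In the untreated and DMSO reporter libraries 95.7% and 96.1% of cells held 0, against 59.7% in the wild type.

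The other region genes differed between these 2 kinds of cell inside the wild-type library too. Cells are not replicates, so these values are a description. Onecut2 was at 24.2 CPM in wild-type cells with a Hoxb UMI and at 99.4 CPM in those without, and was detected in 14.4% and 50.9% of them. In the reporter the same 2 groups had 52.7 and 124 CPM. Gata4 was at 4.72 and 23.0 CPM in the wild type and at 12.7 and 26.6 CPM in the reporter. Both proximal factors were therefore lower where Hoxb was seen, in either line. Osr2 went the other way, with 42.0 and 20.3 CPM in the wild type and 34.4 and 12.1 CPM in the reporter. Fabp6 was at 161 and 67.3 CPM in the wild type, and at 21.9 and 2.71 CPM in the reporter. The 21.9 CPM leans on 1 cell, which held 144 of the 215 UMIs. Within the wild-type classes named below, the direction for Fabp6 was mixed. It was lower with Hoxb in enterocyte-like (47.5 and 66.0 CPM) and Paneth-like cells (5.68 and 7.77 CPM). It was higher in goblet-like (9.11 and 5.77 CPM), tuft-like (9.17 and 4.00 CPM) and enteroendocrine-like cells (4.59 and 3.18 CPM). For Fabp6 the split did not bring the lines together, since wild-type cells without a Hoxb UMI still had more of it than reporter cells with one. Both libraries were then restricted to cells without a Hoxb UMI, a setting chosen after the data were seen. Of 11905 genes tested in it, 95 were lower and 88 higher. Of the 284 lower genes 186 could still be tested and 82 remained lower, and of the 123 higher genes 105 could be tested and 60 remained higher. The distal list then had 10 of 19 tested members lower, with a median log2 ratio of -1.13 against 0.01 over all genes. In all cells it had 16 of 20 lower. The proximal list had 0 of 14 higher in cells without a Hoxb UMI.

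**Figure D4:**
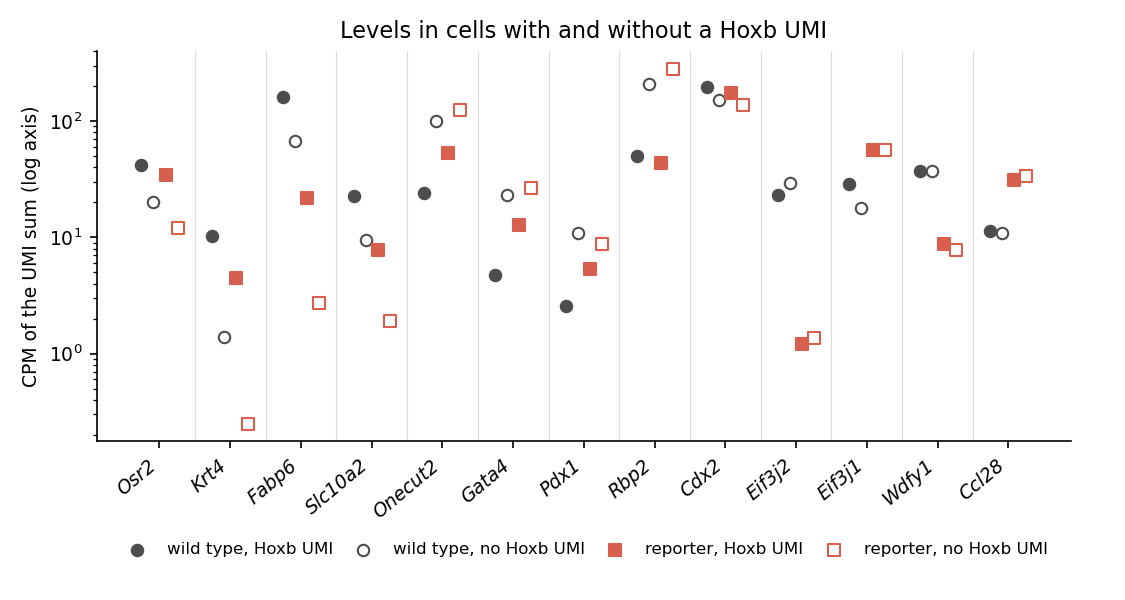
CPM (log y axis) of 13 genes in cells with a Hoxb UMI (filled) and without one (open), in the wild type (circles) and the untreated reporter (squares). Onecut2 and Gata4 are lower and Osr2 is higher in the filled symbols of both lines, whereas Eif3j2 and Wdfy1 differ more between the lines than between the 2 kinds of cell.

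Cells of both libraries were clustered together without the region genes, and a cluster was named only where at least 3 of its 10 leading genes were markers of 1 class. Enteroendocrine-like cells numbered 550 and 546, goblet-like cells 718 and 557, Paneth-like cells 330 and 309, tuft-like cells 393 and 370, and enterocyte-like cells 336 and 436 (wild type, then reporter). Most cells of both lines lay in clusters left unnamed. Some of these differed widely, as 1 with 1634 wild-type and 344 reporter cells and 1 with 514 and 1435. Shares are compared only for tuft-like cells, since in the other 4 classes a leading gene was itself called: they were 4.49% (4.07 to 4.95) and 3.85% (3.47 to 4.25) of cells. Distal genes were lower in 3 of 6 tested in enteroendocrine-like cells (background 0.98%), 2 of 7 in goblet-like (0.963%), 2 of 2 in tuft-like (0.373%) and 0 of 1 in Paneth-like cells (0.58%). Proximal genes were higher in 2 of 6 (background 0.513%), 4 of 8 (0.287%), 3 of 4 (0.249%) and 2 of 4 (0.281%) in the same order. Onecut2 was at 48.2 and 109 CPM in goblet-like cells, 38.5 and 83.4 CPM in Paneth-like cells, and 63.8 and 121 CPM in tuft-like cells. The share of cells with a Hoxb UMI, at 5000 UMIs per cell, was 47.6% and 5.03% in goblet-like, 21.8% and 4.90% in Paneth-like, and 40.6% and 5.26% in tuft-like cells. The enterocyte-like class was named in part by the proximal genes Apoa4, Fabp1 and Rbp2, which fixes some of its proximal result beforehand. Its median depths were 4552 UMIs in the wild type and 8940 in the reporter. Of 12 proximal genes tested in it 0 were higher (background 0.213%) and 3 lower, with a median of 0.17. Of 12 distal genes tested in enterocyte-like cells 0 were lower (background 0.474%), with a median of -0.07. For Fabp6 that rests on 1 cell: 144 of its 165 UMIs in the 436 reporter cells lay in 1 cell, and in cells without a Hoxb UMI it had 160 UMIs (66.0 CPM) in 290 wild-type cells and 20 UMIs (4.37 CPM) in 432 reporter cells. Their wild-type cells held 54.5 CPM over the 8 genes against 174 CPM over the whole library. Fabp6, Tmigd1 and Slc10a2 were instead among the leading genes of another cluster, left unnamed, which also carried Ly6d and Anxa1 and held 1030 wild-type and 302 reporter cells.

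The L-cell hormones Gcg, Pyy and Insl5 had ratios below 1 in the reporter and Gip a ratio above 1. L cells of the distal gut make glucagon-like peptides from Gcg, peptide YY from Pyy and insulin-like peptide 5 from Insl5, while K cells of the proximal gut make Gip. Of 15 hormone genes tested 0 were higher and 3 lower (background 0.988% and 2.28%), namely Insl5, Pyy and Gal, a neuropeptide with 74 and 35 UMIs. Pyy stood at 222 and 89.6 CPM in the untreated libraries and at 40.3 CPM in the DMSO reporter, and Gcg at 746, 376 and 217 CPM. Gip stood at 195, 353 and 535 CPM, so the vehicle library lay further from the wild type than the untreated reporter for all 3 genes. For Insl5, 686 of 1782 wild-type UMIs lay in 1 cell. The share of enteroendocrine-like cells with a Hoxb UMI, at 5000 UMIs per cell, was 62.1% in the wild type and 20.2% in the reporter. Among the enteroendocrine-like cells with a Hoxb UMI (378 and 143 cells) Gcg was at 21271 and 18287 CPM, and among those without (172 and 403 cells) at 6940 and 5601 CPM. Pyy was at 6543 and 4660 CPM in the first and at 1064 and 1207 CPM in the second. Gip was reversed, with 1960 and 2824 CPM in the first and 11329 and 11627 CPM in the second. For these 3 genes the 2 lines were closer to each other within a kind of cell than the 2 kinds of cell were within a line. Other hormones did not share this. Nts, neurotensin of distal endocrine cells, was at 4412 and 5053 CPM in the first and at 3848 and 1648 CPM in the second. The lines thus differed more in cells without Hoxb, and the 2 kinds of cell differed more in the reporter. These values lean on single cells: 1 cell held 3803 of 24887 Nts UMIs of the wild-type library, and 1 held 4073 of 13995 of the reporter. The first 3 genes share this limit to a lesser degree. For Gip 1 cell held 3615 of 26456 wild-type UMIs and 1 held 5795 of 45902 reporter UMIs. For Pyy these were 1701 of 30080 and 1496 of 11647, and for Gcg 7486 of 101221 and 3978 of 48917. Insl5 was at 424 and 74.4 CPM in the first and at 1.27 (2 UMIs) and 13.4 CPM in the second. The hormone Cck of I cells was at 14351 and 19739 CPM in the first and at 14876 and 17176 CPM in the second.

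**Figure D5:**
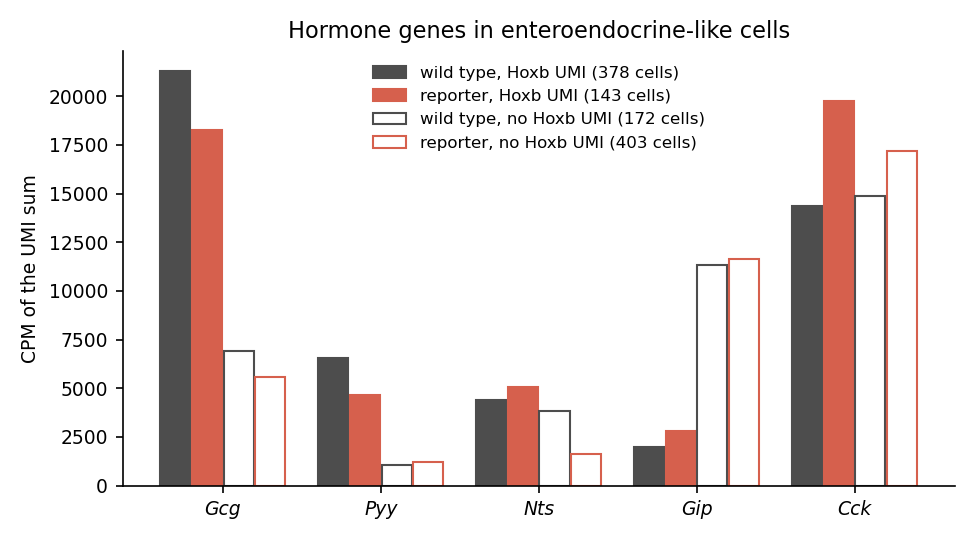
CPM of 5 hormone genes (y axis) in enteroendocrine-like cells with a Hoxb UMI (filled bars) and without one (open bars), for the wild type (grey) and the untreated reporter (red). Gcg and Pyy are high in the filled bars and Gip in the open bars, in both lines.

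Some genes outside the region lists differed between the lines in cells with and without a Hoxb UMI alike, Eif3j2 and Wdfy1 most evenly. Eif3j2 and Rnaset2b are named by their rank, and the others here were chosen after their values were seen. Eif3j2, on chromosome 18, had 25.9 CPM in the wild type and 1.35, 1.17 and 1.25 CPM in the untreated, DMSO and Isx-9 reporter libraries. It was 19.1-fold (16.4 to 22.4) higher in the wild type, and wild-type cells with and without a Hoxb UMI had 23.0 and 29.1 CPM. Its near-identical copy Eif3j1, on chromosome 2, had 23.6 CPM in the wild type and 56.7, 63.9 and 52.8 CPM in the reporter libraries. Both encode a subunit of the translation initiation factor eIF3, and their counts are uncertain because reads can be split between copies. Wdfy1, an endosomal adaptor on chromosome 1, had 37.1 CPM in the wild type and 7.79, 7.48 and 8.27 CPM in the reporter libraries. In cells with and without Hoxb it was at 37.3 and 37.0 CPM in the wild type and at 8.76 and 7.72 CPM in the reporter. Tmem267 and Ccl28 lie side by side on chromosome 13 (119488086 to 119610459 and 119623819 to 119654359) and differed in opposite directions. Tmem267 had 13.1 and 3.04 CPM, a count uncertain because the transcript 3110070M22Rik starts beside it and was called lower too, and Ccl28, a chemokine of mucosal epithelia, had 11.1 and 33.7 CPM. Rnaset2b and Tagap1, neighbours on chromosome 17, were both higher in the reporter, with 3.57 and 13.5 CPM and with 3.73 and 9.39 CPM. Rnaset2a, the near copy of the first, had 18.6 and 13.4 CPM, so these counts carry the same doubt. Rnaset2b was less even, with 4.50 and 2.52 CPM in wild-type cells with and without Hoxb and 12.1 and 13.6 CPM in the reporter, and Eif3j1 was at 28.6 and 17.9 CPM in the wild type. Of 7 genes known to differ between mouse strains 3 could be tested, and none was called: Nnt had 4.21 and 4.16 CPM, Glo1 had 165 and 176 CPM, and B4galnt2 had 34.7 and 26.3 CPM.

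Another set of reporter-high genes sat in a minority of cells. In the joint clustering 2 unnamed clusters held 952 reporter cells, 9.91% of that library, and 6 wild-type cells, and Cox6b2, a subunit of cytochrome c oxidase best known from testis, led both. With 1 library per line, such clusters may reflect the library. Cox6b2 had 4.97 CPM in the wild type, 17.1 in the reporter, 12.9 in the DMSO reporter and 107 in the Isx-9 reporter. Cells with at least 2 Cox6b2 UMIs were 1.19%, 5.02%, 3.89% and 28.2% of the 4 libraries. Dusp22, a phosphatase, was at 7.95 CPM in such reporter cells and at 0.92 CPM in reporter cells without Cox6b2. Slfn2, a Schlafen family gene, was at 4.37 and 0.89 CPM in the same groups. Both Dusp22 and Slfn2 were leading genes of 1 of the 2 clusters, so they were picked for such cells. In the wild type, cells with at least 2 Cox6b2 UMIs had 0 UMIs of either gene, in 104 cells only. In the Isx-9 reporter the 2 groups had 17.8 and 21.7 CPM of Dusp22, and 5.98 and 2.39 CPM of Slfn2. Not every reporter-high gene followed: Rnaset2b was at 12.2 and 13.4 CPM in the 2 groups of the untreated reporter. Without the 2 clusters, a setting chosen after the data were seen, 114 of the 123 higher genes could be tested and 81 remained higher, and 283 of the 284 lower genes could be tested and 236 remained lower.

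The highest ratios otherwise belonged to low counts. Sprr2f, a cornified envelope gene, had 29 and 218 UMIs, 88 of the latter in 1 cell, and the imprinted Meg3 had 9 and 93 UMIs in 2 and 13 cells. Vsig2, an epithelial surface protein, was spread over more cells, with 184 UMIs in 147 wild-type cells and 791 in 619 reporter cells. Ctrb1, a digestive protease, had 448 and 1616 UMIs. Among the lowest, Krt4, a keratin of stratified epithelium, had 824 and 74 UMIs, and 10.2 and 1.39 CPM in wild-type cells with and without Hoxb. The sodium-coupled carboxylate transporter Slc5a8 had 449 and 29 UMIs, and Ereg, an EGF receptor ligand, had 267 and 29 UMIs.

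Of the remaining lists, genes of drug and xenobiotic metabolism stood high. Of 31 tested 7 were higher and 0 lower (background 0.988% and 2.28%), with a median log2 ratio of 0.55. These calls fell to 3 with per-cell means, to 2 at equal class shares, and to 0 with a median of 0.09 in cells without a Hoxb UMI. The carboxylesterase Ces2a had 60.5, 149, 155 and 2.94 CPM in the 4 libraries, and in the untreated wild type 31.9 CPM in cells with a Hoxb UMI and 92.6 CPM in cells without. Genes of injured and fetal-like epithelium had 5 of 11 members lower and 0 higher (background 2.28% and 0.988%), with a median of -0.91. Ly6d had 29.5 and 5.89 CPM, Ly6a 56.7 and 14.0 CPM, Anxa1 30.1 and 7.29 CPM, S100a6 277 and 92.0 CPM, and Sprr1a 7615 and 2977 UMIs. Ly6d, Anxa1 and Ly6a lead the unnamed cluster of 1030 wild-type and 302 reporter cells that also carried Fabp6, and the part of that cluster in the lower counts was not tested. Of 5 Reg genes tested 2 were lower (background 2.28%) and 3 above 0, with a median of 0.15. The lower ones were the antimicrobial lectins Reg3b and Reg3g, with 42.1 and 7.35 CPM and with 56.1 and 18.7 CPM, although reads of such near copies can be split, as they can among Ly6 genes. Of 21 antigen presentation and interferon genes tested 1 was higher and 2 lower (background 0.988% and 2.28%), with a median of 0.12. The lower ones were Ifit1, with 278 and 75 UMIs, and Isg15, with 0.597 and 0.254 CPM but 0.574 CPM in the DMSO reporter. No member was called in the stem (12 tested), proliferation (20), tuft (11), enteroendocrine (23), cholesterol (18) and ribosomal protein (73) lists. Their medians lay between -0.22 and 0.03. The immediate early list, with Fos, Jun and Atf3, had 1 of 16 lower and 0 higher, but 15 below 0 and a median of -0.44. Atf3, the lower one, had 49.7, 24.7 and 42.9 CPM in the wild type, untreated reporter and DMSO reporter. Of 21 lipid and retinol genes 1 was higher and 19 lay above 0, with a median of 0.44. Of 9 antimicrobial genes 2 were lower, and of 10 imprinted genes 1 was higher and 2 lower. The background for these lists was again 0.988% higher and 2.28% lower.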

How the data were processed

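Each matrix holds UMI counts per gene and cell as the authors deposited them, without normalization. Cell Ranger 3.1.0, Seurat 3.1.5 and GRCm38 are named in the submitters' processing notes; the annotation release was not given in the sources used here. All listed genes had UMIs in at least 3 cells and all barcodes at least 500 UMIs and 200 genes. Chromosomes came from RefSeq's table of GRCm38.p6 by symbol, and 375 genes with at least 100 UMIs and no match were left out, as were sex chromosomes. Python 3.11.15 and scanpy 1.11.5 were used. Ratios and exact intervals were tested on simulated data, drawn as independent random counts per gene over a whole library. The simulation held no cells, so it could not show the effect of UMIs concentrated in single cells. Clustering used 2000 variable genes, 30 components, 15 neighbours and Leiden resolution 1, without batch correction. Scrublet called 1 cell in each library, so it had not worked and doublets were kept. Members, lists and named genes were chosen with earlier results of these data known. Genes to name were drawn from Chgb, the 15 highest and 15 lowest ratios (at least 10 UMIs in the lower library, no predicted genes) and 5 per direction under 10 UMIs. Further sources were called region genes with fixed region factors, the 4 largest of each other list, and the strain genes. Not all of these are in the text. Hoxb5os (347 and 14 UMIs) and Rnf212 (250 and 18 UMIs) of the lowest are among those left out, as are Tfr2 (18 and 97 UMIs) and Klhl33 (19 and 108 UMIs) of the highest. A member of the region lists is not reported here.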

Additional observations from a re-analysis of the deposited data

How the results depend on the processing

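The counts of 123 higher and 284 lower genes stayed within 1.5 times under median-of-ratios scaling, CPM without mitochondrial and ribosomal protein genes, every deposited cell, a stricter cell filter, per-cell means, equal class shares and the DMSO library in place of the untreated one. Most cells of both lines lay in no named class, which bears on equal class shares. Leaving out called doublets removed 1 cell per library and is no check. Asking for 30 UMIs gave 222 and 447, for 1000 UMIs 24 and 88, and for a 3-fold difference 29 and 112, since each tests other genes or a larger fold. In cells with no Hoxb UMI, an added setting with fewer cells, 95 of 11905 tested genes were lower, and 10 of 19 tested distal genes. The 2 higher proximal genes became 4 under median-of-ratios scaling, 5 without mitochondrial and ribosomal genes, 4 under the stricter filter, 6 with the DMSO library, 4 without the reporter clusters, and 0 under equal class shares or in cells with no Hoxb UMI, and Onecut2, Apoa4 and Leap2 lay just under 2-fold. The 7 higher xenobiotic genes became 3 with per-cell means, 2 under equal class shares and 0 in cells with no Hoxb UMI. The cause was not tested. The log2 ratio of Chgb, -0.45, was -0.43 under median-of-ratios scaling, -0.31 in enteroendocrine-like cells, -0.60 with the DMSO library and -0.30 without the reporter clusters. Its share of cells, reporter over wild type, was 0.758 at 1 UMI and 0.897 at 10 UMIs. Reversed were Dlk1 (74 UMIs in the reporter), at 0.46 with the DMSO library, and Pyy, at 0.14 in cells with no Hoxb UMI. No paired analysis was possible because each line has 1 library and no replicate number. Depth limits genes under 100 UMIs, of which a change was not read.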

Other observations

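The list of Notch, Wnt and BMP signalling genes stood near the background, with 1 of 18 tested lower, 0 higher (background 2.28% and 0.988%) and a median log2 ratio of -0.18. The lower gene was Id3, a target of BMP signalling, with 38.3 CPM in the wild type, 17.5 in the untreated reporter and 17.8 in the DMSO reporter. Its relative Id1, chosen after its values were seen, had 51.2, 26.6 and 25.5 CPM. The epithelial differentiation factor Klf4 had 68.2 and 33.8 CPM in the untreated lines, and 83.8 and 50.8 CPM in wild-type cells with and without a Hoxb UMI. H2-Ab1, which presents antigen on class II, had 199 and 384 UMIs and was the 1 higher gene of the antigen presentation and interferon list, which also had 2 lower of 21 tested (background 0.988% and 2.28%).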
